A study of Rattus norvegicus with 42 samples.

Results

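Several steps of glycolysis are carried out by more than 1 version of the same enzyme, each encoded by its own gene, and the gene in use differs between tissues. Followed here in rat brain, lung and liver were the aldolases Aldoa and Aldoc, the enolases Eno1, Eno2 and Eno3, the lactate dehydrogenases Ldha and Ldhb, and the pyruvate kinase Pklr. A probe set was taken when the platform annotation listed 1 of these symbols for it and no other gene. That gave 9 probe sets for 8 genes, out of 31042 probe sets and 14217 named genes, with 2 probe sets for Pklr and 1 for each of the others. Pkm, the pyruvate kinase of most other tissues, was not analysed here, because the probe set listed for it also named a second gene.

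The 42 Affymetrix arrays formed 14 groups of 3 technical replicates: brain, lung and liver alone, and 11 mixtures made by pooling their labelled RNA (cRNA). All RNA came from 1 untreated rat, whose age the labels give as 9 to 12 weeks; strain and sex are not stated there. The name of a mixture gives its percentages as labelled, first liver, then brain, then lung: 25/70/5, 5/25/70, 70/5/25, 70/25/5, 45/45/10, 55/20/25, 50/30/20, 55/30/15, 50/40/10, 60/35/5 and 65/34/1. The replicate arrays of a group carry 1 and the same RNA, so a p-value here says nothing of other animals. It covers array-to-array spread, except in the regression on mixture arrays, where misfit to the labelled shares enters too. In whole tissue, fewer cells of a type and less RNA per cell cannot be told apart.

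Aldolase splits fructose 1,6-bisphosphate into the 3-carbon sugars that feed the lower part of glycolysis. Enolase makes phosphoenolpyruvate, pyruvate kinase turns that into pyruvate, and lactate dehydrogenase converts pyruvate and lactate into each other. Textbooks describe aldolase A as the muscle and general form and aldolase C as a brain form found in astrocytes and Purkinje cells. Enolase 1 is the general form, enolase 2 the neuronal form and enolase 3 the muscle form. Lactate dehydrogenase is a tetramer of A subunits, typical of skeletal muscle and liver, and B subunits, typical of heart and brain. Pklr is read from separate starts in liver and in red blood cells, and the liver enzyme is switched on by glucose and insulin and slowed by phosphorylation in fasting.

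Promoter letters of 4 of the genes are shown as examples of the tissue patterns below. They are Pklr, highest in liver, Eno2, highest in brain, and the lactate dehydrogenase pair, which ran oppositely between liver and the other tissues. Each line holds the 200 bases before an annotated start, 5′ to 3′ on the gene's strand, from RefSeq (GRCr8). Pklr lies at chr2:176840779-176849637 and its window at chr2:176841064-176841263 (plus strand). Eno2 lies at chr4:159258371-159267220 and its window at chr4:159267221-159267420 (minus strand). Ldha lies at chr1:106508092-106517512 and its window at chr1:106507892-106508091 (plus strand). Ldhb lies at chr4:177159389-177177408 and its window at chr4:177177409-177177608 (minus strand). Capitals mark the letters searched for: ACGTG on either strand, the core recognised by hypoxia-inducible factors; GTTA, any 5 bases, then TAAC, the paired arms of a site of the liver factor HNF1; and CACGGG, any 5 bases, then CCCGTG, the paired arms of the carbohydrate response element known from this gene.
Pklr: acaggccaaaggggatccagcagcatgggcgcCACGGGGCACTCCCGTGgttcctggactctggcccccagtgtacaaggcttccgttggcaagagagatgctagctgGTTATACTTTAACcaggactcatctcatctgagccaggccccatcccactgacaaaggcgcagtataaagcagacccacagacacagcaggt
Eno2: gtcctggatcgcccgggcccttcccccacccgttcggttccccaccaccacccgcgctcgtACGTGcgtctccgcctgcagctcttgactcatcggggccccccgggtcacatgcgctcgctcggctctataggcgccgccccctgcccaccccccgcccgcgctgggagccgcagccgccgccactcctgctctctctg
Ldha: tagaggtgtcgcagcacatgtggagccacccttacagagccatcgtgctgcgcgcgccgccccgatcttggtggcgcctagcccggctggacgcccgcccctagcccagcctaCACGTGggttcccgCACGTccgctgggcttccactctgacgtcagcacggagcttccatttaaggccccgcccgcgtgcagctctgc
Ldhb: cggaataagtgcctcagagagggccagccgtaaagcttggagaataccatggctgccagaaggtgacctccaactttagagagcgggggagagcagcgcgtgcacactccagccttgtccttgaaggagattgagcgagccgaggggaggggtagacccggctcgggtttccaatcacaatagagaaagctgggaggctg

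The Pklr window held both paired motifs, the carbohydrate response arms at -168 to -152 and the HNF1 arms at -92 to -80, counted from the start. Over 33469 windows of the same length across the RefSeq table, 1 (0.00299%) held the carbohydrate response arms, and it was the Pklr window itself. Those arms are written as known from this gene, so the match was fixed in advance and its share measures no rarity. The HNF1 arms stood in 69 windows (0.206%), that of Pklr among them. The core ACGTG stood in the windows of Ldha, where 2 of its 3 matches, at -87 to -83 and -86 to -82, overlap on opposite strands, and of Eno2, at -139 to -135. Of all 11 windows of the 8 genes, 4 held that core (Ldha, Eno2, Aldoc and the third annotated start of Aldoa), against 13.7% of all windows, and 5 held the GC box GGGCGG on either strand, against 28.6%. A match describes the letters and is neither a bound site nor a cause, and no match, as in the window of Ldhb, says only that those letters are not in these bases.

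The labels of the pure tissues were checked against marker genes, with levels summed on the linear scale over each list and given as the range of 3 arrays. The 6 neuronal markers summed to 19577 to 20079 in brain, 99.5 to 113 in lung and 99.0 to 122 in liver, and the 6 astrocyte markers to 18469 to 19099, 2326 to 2554 and 734 to 786 in the same order of tissues. The 3 measured oligodendrocyte markers summed to 19143 to 19857 in brain, 41.1 to 43.9 in lung and 54.3 to 58.6 in liver. The 5 markers of alveolar and airway cells summed to 83.1 to 92.1 in brain, 50678 to 52826 in lung and 99.5 to 121 in liver. The 11 hepatocyte markers summed to 13966 to 14556 in brain, 455 to 487 in lung and 106950.0 to 111033 in liver, and 8 of the 11 were called higher in brain than in lung. The brain sum came mostly from Ttr (13.09, log2) and Alb (12.21), with Apoc3 next at 7.71. Ttr was not called between brain and liver (-0.24). Alb was 7.14 (log2) higher in brain than in lung, and 1 of the 11 markers, Cyp2e1, was called lower there (-1.29). The part of hepatocyte RNA in the brain sum was not tested. Array medians were 5.48 to 5.83 (log2). As a guide to the floor, 27 bacterial control probe sets averaged 2.49 to 3.66 in brain, 2.43 to 3.51 in lung and 2.57 to 4.58 in liver, and folds against levels near these are approximate. The 4 hybridisation controls did not sit at equal levels: bioB was at 7.62 in brain, 7.55 in lung and 8.48 in liver, and cre at 13.43, 13.22 and 13.02. An alternative scaling, named the line through the hybridisation controls, moved each array towards the mean levels of these 4 controls. It interpolated between neighbouring controls, and every level below bioB took the bioB shift. Changes at such low levels therefore rest on bioB alone.

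Both aldolase genes were higher in brain than in the other tissues, Aldoc far more steeply than Aldoa. Aldoa (chr1:190832820-190838021) had log2 levels of 12.36, 12.33 and 12.34 on the brain arrays, 10.94, 10.89 and 11.03 on the lung arrays and 8.95, 8.94 and 8.96 on the liver arrays. The tissues formed 3 separate steps with no overlap. Aldoa was 10.5-fold higher in brain than in liver (3.39 ± 0.04, log2, SE; limma, Benjamini-Hochberg adjusted p = 7.13e-37), 4.01-fold higher in lung than in liver and 2.63-fold higher in brain than in lung.

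Aldoc (chr10:63715544-63719133) read 12.54, 12.55 and 12.45 in brain, 5.89, 5.85 and 5.71 in lung and 4.98, 5.28 and 5.26 in liver. It was thus high in brain alone. Aldoc was 162-fold higher in brain than in liver (7.34 ± 0.05, log2, SE; adjusted p = 1.23e-43) and 104-fold higher in brain than in lung. The lung and liver arrays did not overlap, but their difference of 0.64 (log2, adjusted p = 8.87e-13) was below the 2-fold limit used for calls between pure tissues, which, of the alternatives run, it passed after the line through the hybridisation controls (1.58). Of the 6 astrocyte markers above, 6 were called higher in brain than in lung and 5 higher in brain than in liver, where the glutamate transporter gene Slc1a2 was at -0.62 (log2). Between lung and liver, where Aldoc was not called, 4 were higher in lung, led by the water channel gene Aqp4 (72.8-fold) and the glutamate transporter gene Slc1a3 (16.3-fold), and 1 was lower. The part of astrocytes in the Aldoc level was not tested.

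**Figure D1:**
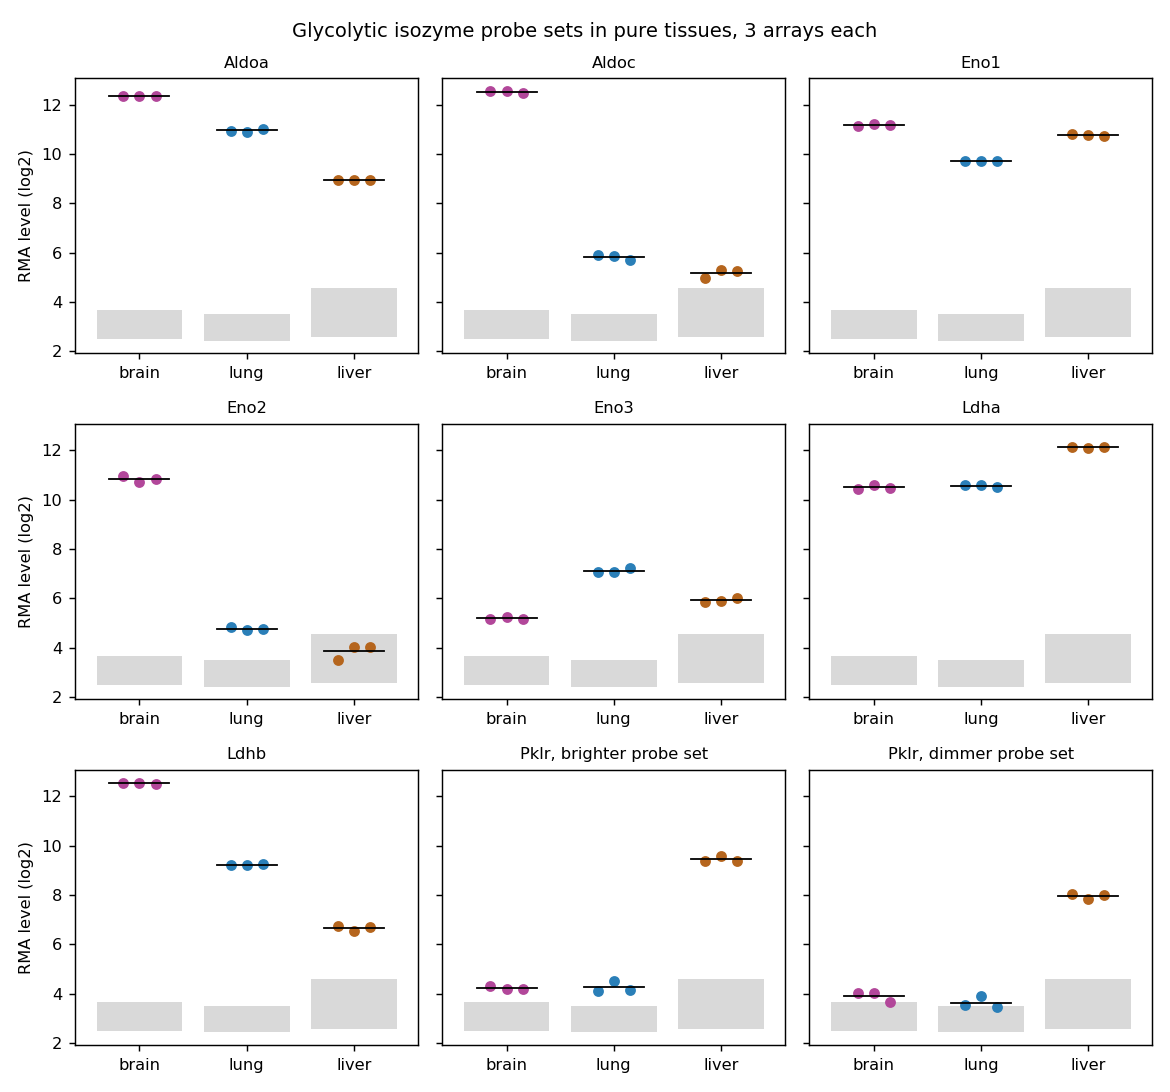
Log2 RMA level of each isozyme probe set on each array of pure brain, lung and liver (points, 3 arrays per tissue), with the tissue mean as a line and the range of the bacterial control probe sets as a grey band. Aldoc and Eno2 stand above 10 in brain and below 6 in lung and liver, both Pklr probe sets are above 7 in liver alone, and Eno3 is highest in lung.

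The 3 enolase genes each had a different order of tissues. Eno1 (chr5:166002867-166014252) was the most even, at 11.12, 11.23 and 11.17 in brain, 9.72, 9.71 and 9.70 in lung and 10.82, 10.77 and 10.73 in liver. Lung was the low tissue, 2.09-fold under liver (-1.06 ± 0.04, log2, SE; adjusted p = 1.62e-22), and brain was 2.76-fold above lung. Between brain and liver Eno1 differed by 0.40 (log2, adjusted p = 6.15e-11), less than 2-fold, although the arrays did not overlap. The lung call was lost after a repeated quantile normalization (-0.94) and after a line through the hybridisation controls (-0.76).

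Eno2, the neuronal enolase, read 10.97, 10.73 and 10.85 in brain, 4.83, 4.73 and 4.77 in lung and 3.51, 4.04 and 4.03 in liver. The liver values lay within the range of the bacterial controls there, so the 128-fold difference of brain over liver (6.996 ± 0.09, log2, SE; adjusted p = 1.32e-36) is approximate. Brain was 67.6-fold above lung. Eno2 moved with the neuronal markers, of which 6 of 6 were higher in brain than in each other tissue; the part of neurons in its level was not tested. In lung Eno2 stood 0.92 (log2, adjusted p = 5.18e-11) above liver, under the limit. It passed the limit at 1.19 after quantile normalization, 1.85 after the line through the hybridisation controls, 1.99 with the 5th percentile of each array subtracted, and 1.01 and 1.00 without liver replicate 2 or 3.

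Eno3 (chr10:55868880-55876099), the muscle enolase, was lowest in brain and highest in lung. Its levels were 5.18, 5.25 and 5.17 in brain, 7.06, 7.07 and 7.24 in lung and 5.86, 5.89 and 6.04 in liver. The 3 tissues did not overlap. Eno3 was 3.78-fold lower in brain than in lung (-1.92 ± 0.10, log2, SE; adjusted p = 2.45e-18) and 2.28-fold higher in lung than in liver (1.19 ± 0.10; adjusted p = 1.29e-12). The lung difference fell under 2-fold after median centring (0.94) and quantile normalization (0.84). Brain was 0.73 (log2) below liver, not called at 2-fold.

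Muscle markers also differed between the tissues. The 6 measured skeletal muscle markers summed to 306 to 328 in brain, 1145 to 1186 in lung and 664 to 691 in liver, with 4 of 6 called lower in brain than in lung and 0 of 6 called between lung and liver. The 6 measured heart muscle markers summed to 183 to 191 in brain, 1799 to 1837 in lung and 152 to 180 in liver, with 5 of 6 higher in lung than in liver. The part of muscle RNA in the Eno3 level was not tested.

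The lactate dehydrogenase genes ran in opposite directions between liver and the other tissues. Ldha read 10.44, 10.58 and 10.49 in brain, 10.59, 10.60 and 10.53 in lung and 12.15, 12.12 and 12.13 in liver. It was high in liver, 3.09-fold lower in brain (-1.63 ± 0.04, log2, SE; adjusted p = 1.33e-27) and 2.95-fold lower in lung (-1.56 ± 0.04; adjusted p = 7.91e-27). Brain and lung overlapped and were not told apart, with a difference of -0.07 (log2, adjusted p = 0.138).

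Ldhb read 12.54, 12.54 and 12.49 in brain, 9.21, 9.23 and 9.25 in lung and 6.72, 6.56 and 6.68 in liver. The tissues formed 3 separate steps. Ldhb was 58.5-fold higher in brain than in liver (5.87 ± 0.04, log2, SE; adjusted p = 2.73e-43), 5.96-fold higher in lung than in liver and 9.81-fold higher in brain than in lung. Hence liver, where the A subunit gene was highest, was the tissue where the B subunit gene was lowest.

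Both Pklr probe sets were high in liver alone. The brighter one read 4.29, 4.20 and 4.19 in brain, 4.09, 4.51 and 4.16 in lung and 9.37, 9.56 and 9.38 in liver. The dimmer one read 4.003, 4.04 and 3.67 in brain, 3.53, 3.92 and 3.44 in lung and 8.02, 7.84 and 7.996 in liver. The liver arrays stood clear of all others, while brain and lung overlapped at levels of 3.44 to 4.51.

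By the brighter probe set Pklr was 36.9-fold lower in brain than in liver (-5.21 ± 0.08, log2, SE; adjusted p = 1.08e-34) and 36.3-fold lower in lung; by the dimmer one it was 16.5-fold and 20.0-fold lower. Brain and lung differed by -0.03 (adjusted p = 0.780) with the brighter and by 0.27 (adjusted p = 0.0171, under 2-fold) with the dimmer probe set. Of the hepatocyte markers, 8 of 11 were called higher in brain than in lung; in both tissues Pklr lay near the bacterial controls, and the part of hepatocyte RNA in its level was not tested. The 5 measured red blood cell markers summed to 2713 to 2791 in brain, 12735 to 12910.4 in lung and 5137 to 5225 in liver, and the part of red blood cells in the Pklr level was not tested.

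Counted together, 4 of the 9 probe sets were called higher and 3 lower in brain than in liver, where 18.9% and 14.6% of all probe sets were. In lung against liver 3 were higher and 4 lower, against 17.2% and 10.8% of all, and in brain against lung 5 were higher and 1 lower, against 15.0% and 15.9%. Their median differences were 0.40, 0.64 and 1.39 (log2), beside -0.18, -0.12 and -0.03 over all probe sets. Directions near these medians depend on scaling: the median brain minus liver difference of all probe sets was -0.42 after median centring and 0.66 after the line through the hybridisation controls. The corresponding lung minus liver medians were -0.37 and 0.80. Under that line Eno3 in brain minus liver turned to 0.14, where both levels lie below bioB and took its shift alone. The line also gave 5 probe sets called higher in lung than in liver, in place of 3. For the genes with pseudogenes in the RefSeq table, 30 named after Eno1, 30 after Ldha, 9 after Aldoa and 1 after Ldhb, signal from near-identical copies could not be told apart.

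The switch between isozymes was then read from each array as the difference of log2 levels between partners, which is set against its own liver mean because different probe sets have no common scale. The ratio of Aldoc to Aldoa lay 3.95 ± 0.06 (log2, SD, n = 3) above liver in brain and 1.36 below liver in lung (-1.36 ± 0.15). Lung thus leaned further towards Aldoa than liver did. The exact permutation test of the F statistic over the 9 pure arrays gave p = 0.00357, the smallest that its 1680 partitions allow, and 0.00446 after adjustment over 5 ratios.

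Among the enolases, Eno2 relative to Eno1 stood 6.60 ± 0.18 above liver in brain and 1.98 ± 0.05 above it in lung. Eno3 relative to Eno1 stood at -1.13 ± 0.03 in brain and 2.25 ± 0.11 in lung, so brain and lung moved away from liver in opposite directions; the brain value was -0.27 after the line through the hybridisation controls. Each of these ratios had an exact permutation p of 0.00357 (adjusted 0.00446). Eno3 relative to Eno2 was at -7.72 in brain (exact permutation p = 0.0107, adjusted 0.0107), but its lung value of 0.27 turned to -0.35 after quantile normalization and -0.65 with the 5th percentile subtracted.

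Ldhb relative to Ldha stood 7.50 ± 0.07 above liver in brain and 4.13 ± 0.06 above it in lung (exact permutation p = 0.00357, adjusted 0.00446). The brain arrays spanned 7.44 to 7.58 and the lung arrays 4.10 to 4.20, with liver at -0.08 to 0.05. Leaving out each pure array in turn kept the brain value between 7.46 and 7.53.

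In the mixtures these ratios followed the tissue shares in different shapes. With 5% brain (70/5/25) the ratio of Eno2 to Eno1 was already 4.16 ± 0.07 above liver and that of Aldoc to Aldoa 2.52 ± 0.06. With 70% brain (25/70/5) they were 6.41 ± 0.01 and 3.84 ± 0.02, beside 6.60 and 3.95 in pure brain. Ldhb to Ldha was at 3.10 ± 0.04 in 70/5/25, 4.63 ± 0.04 in 70/25/5 and 6.42 ± 0.06 in 25/70/5. It did not follow the brain share alone: 5/25/70, like 70/25/5 with 25% brain, was at 5.84 ± 0.04, above 45/45/10 (5.52 ± 0.06), and pure lung, at 4.13, was above 70/5/25. Eno3 to Eno1 was highest in the 70% lung mixture (5/25/70), at 0.86 ± 0.21, and lowest in 25/70/5, at -1.04 ± 0.10.

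**Figure D2:**
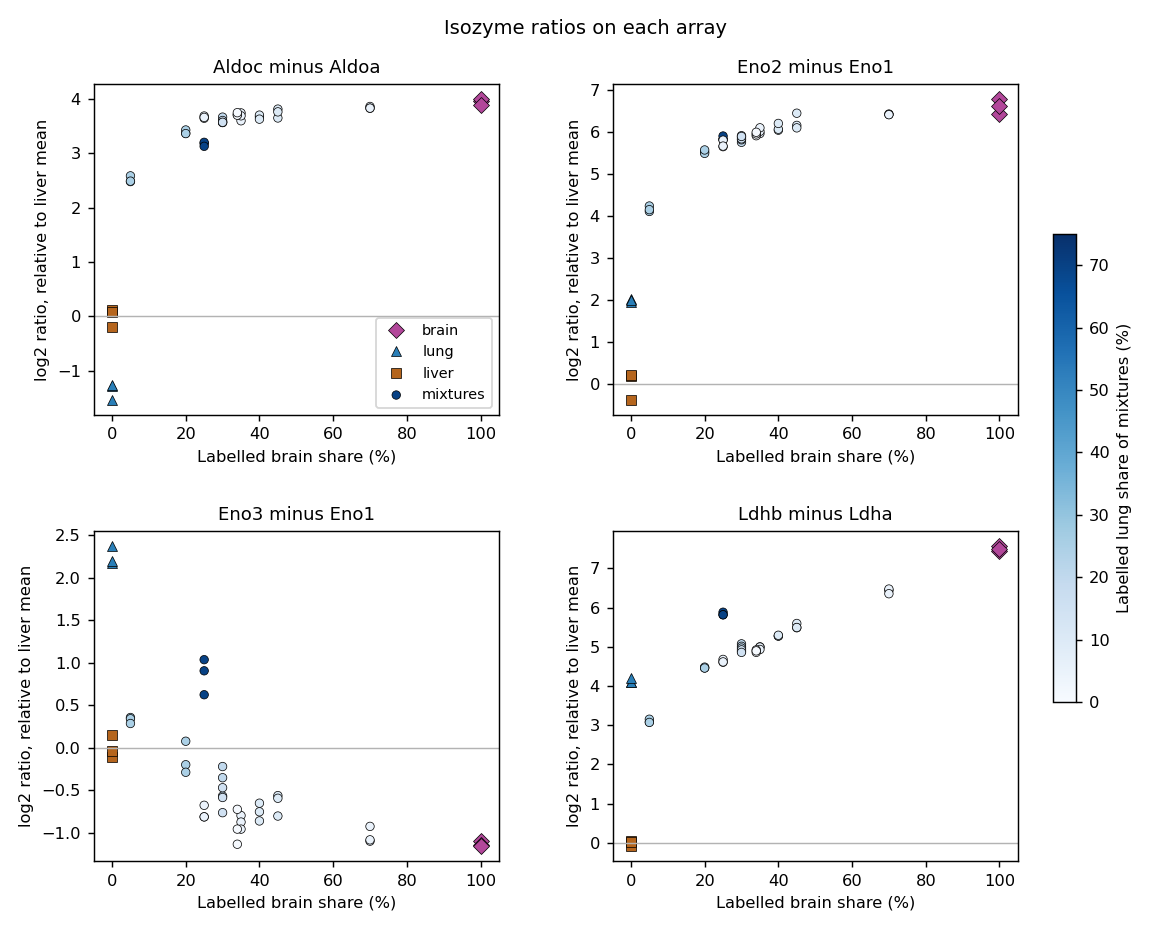
Log2 ratio of isozyme partners on each array, relative to its mean in liver, against the labelled percentage of brain; diamonds are brain, triangles lung and squares liver, and circles are mixture arrays shaded by their percentage of lung. Aldoc to Aldoa and Eno2 to Eno1 climb steeply at 5% brain and then flatten, Ldhb to Ldha is lowest in liver and highest in brain, with 5/25/70 (5.84) above 70/25/5 (4.63) at the same 25% brain, and Eno3 to Eno1 is higher in lung, at over 2, than in any mixture, of which that with 70% lung comes closest.

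Other enzymes of the pathway gave these switches their setting, 1 probe set per gene. The list medians are set beside those of all named genes. The shares of calls are over all probe sets, dim and unnamed ones included, and are a rough guide only. Of 13 measured other glycolytic enzymes 6 were higher and 2 lower in brain than in liver, with a median difference of 0.97 (log2) beside -0.19 over all genes; of all probe sets, 18.9% were called higher and 14.6% lower. The phosphofructokinase genes Pfkp and Pfkm, of the platelet and muscle forms at the step before aldolase, were 5.30 ± 0.06 and 4.89 ± 0.05 (log2, SE) higher. The lower ones were Ldhd, a mitochondrial D-lactate dehydrogenase (-1.70 ± 0.10), and Pgam2, the muscle phosphoglycerate mutase (-1.10 ± 0.12). In lung against liver 3 were higher, led by Pfkp (2.69) and the hexokinase Hk1 (2.21), and 3 lower, led by the triose isomerase Tpi1 (-1.60) and Ldhd (-1.47), against 17.2% and 10.8% of all probe sets, with a median of 0.18 beside -0.03 over all genes. In brain against lung 7 were higher, with Pfkm at 3.49 and Pfkp at 2.62, and 1 was lower, Pgam2 at -1.66, against 15.0% and 15.9% of all probe sets; the median was 1.57 beside -0.09 over all genes.

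**Figure D3:**
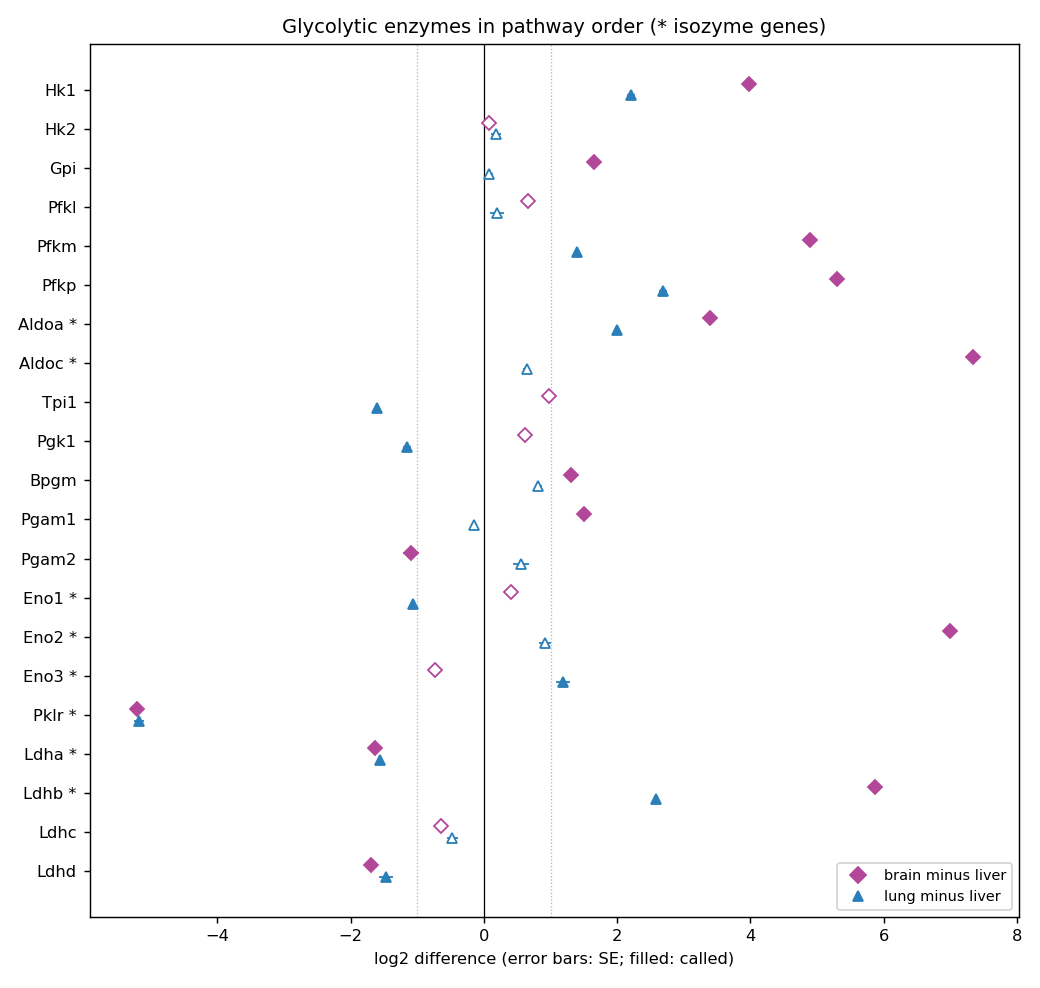
Log2 difference of brain minus liver (diamonds) and lung minus liver (triangles) for the glycolytic enzymes in pathway order, with standard errors; filled symbols passed adjusted p of 0.05 and 2-fold, dotted lines mark 2-fold, and asterisks mark the isozyme genes. Pklr is drawn by its brighter probe set. Aldoc and Eno2 are the farthest to the right in brain, with Ldhb, Pfkp and Pfkm next, and Pklr is far to the left in both.

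The list of fructose metabolism and fructose bisphosphate control had 6 measured genes, of which 2 were higher and 3 lower in brain than in liver, against 18.9% and 14.6% of all probe sets. Pfkfb3 (2.58) and Pfkfb2 (1.18), which set the level of the phosphofructokinase activator fructose 2,6-bisphosphate, were higher, and Tkfc (-5.10) and the ketohexokinase gene Khk (-4.93), both of fructose breakdown, were lower (log2 differences). In lung against liver 3 were higher, with Pfkfb3 at 2.72 and Pfkfb4 at 1.74, and 3 lower (17.2% and 10.8% of all), with Khk at -5.54 and Tkfc at -4.84. In brain against lung 0 were higher and 2 lower (15.0% and 15.9% of all), Pfkfb1 and Pfkfb4, each at -1.20. Like Pklr, the fructose genes Khk and Tkfc had their high level in liver. The medians of the list were -1.12 for brain minus liver, -0.12 for lung minus liver and -0.22 for brain minus lung, beside -0.19, -0.03 and -0.09 over all genes, so the last 2 lay close to those of all genes.

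Gluconeogenesis runs the pathway backwards past pyruvate kinase. Of its 6 measured genes 0 were higher and 4 lower in brain than in liver, against 18.9% and 14.6% of all probe sets, led by Fbp1 (-8.05) and Pck1 (-7.38), the fructose bisphosphatase and the phosphoenolpyruvate carboxykinase of liver. In lung against liver 4 were lower, again with Fbp1 (-7.11) and Pck1 (-6.12) first, and 1 was higher, Fbp2 (1.54), the muscle form of fructose bisphosphatase; of all probe sets 10.8% were lower and 17.2% higher. Fbp2, like Eno3, was highest in lung, and was lower in brain than in lung (-2.05 ± 0.11, log2, SE). Its levels in brain (3.37) and liver (3.89) lay within the range of the bacterial controls, so these differences are approximate. Between brain and liver Fbp2 was not called (-0.52). Pck1 was also lower in brain than in lung (-1.25), while the pyruvate carboxylase gene Pc was the 1 gene higher (1.62), against 15.9% lower and 15.0% higher of all. The medians were -2.60, -3.28 and -0.74 for brain minus liver, lung minus liver and brain minus lung, beside -0.19, -0.03 and -0.09 over all genes.

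Of 15 measured genes for the fates of pyruvate and lactate, 1 was higher and 5 lower in brain than in liver, against 18.9% and 14.6% of all probe sets. Pdk3, a kinase that switches off pyruvate dehydrogenase, was higher (2.40), and its relative Pdk4 (-3.69) and the monocarboxylate transporter gene Slc16a7 (-2.67) led the lower ones. In lung against liver 1 was higher, again Pdk3 (3.20), and 10 lower (17.2% and 10.8% of all), with Pdk4 (-3.52) and the glycerol phosphate dehydrogenase gene Gpd1 (-3.31) first. In brain against lung 3 were higher, with Pdk2 at 1.89 and Gpd1 at 1.52, and 1 was lower, the lactate exporter gene Slc16a3 (-1.16), against 15.0% and 15.9% of all probe sets. The medians for brain minus liver, lung minus liver and brain minus lung were -0.63, -1.54 and 0.72, beside -0.19, -0.03 and -0.09 over all genes.

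For each mixture, linear levels of the pure tissues were weighted by the labelled shares and added up, and the observed level was compared with that sum, averaged over the 11 mixtures. Eno2 lay above that sum by 0.61 ± 0.07 (log2, SE; limma adjusted p = 7.94e-10), passing the 1.5-fold limit, and both Pklr probe sets lay below it, by -0.81 ± 0.06 (adjusted p = 3.99e-14) and -0.995 ± 0.07 (adjusted p = 6.18e-14). Thus 1 probe set was called above and 2 below, where 0.325% and 4.84% of all probe sets were. The median over all probe sets was -0.22. The Eno2 call ended without brain replicate 2 (0.55), and after median centring (0.58), quantile normalization (0.57) or the line through the hybridisation controls (0.56), which also ended the Pklr calls (-0.43 and -0.47). Against a share-weighted mean of log2 levels, which never exceeds the linear sum, the Pklr departures were 0.64 and 0.00411.

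The remaining genes departed by less than 1.5-fold. Aldoc lay 0.36, Ldhb 0.31, Aldoa 0.25 and Ldha 0.15 (log2) above the sum and Eno3 below it (-0.51 ± 0.05), each with the same sign in all 11 mixtures and an adjusted p of 2.15e-06 or lower. All 11 sums are built from the same pure arrays, so their equal signs are not separate results. Eno3 passed the limit after median centring (-0.65) and quantile normalization (-0.65). The sign for Ldha turned after median centring (-0.0571) and after the line through the hybridisation controls (-0.00570). Eno1, the most even of the genes, departed by 0.03 (adjusted p = 0.179), above in 9 mixtures and below in 2.

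For some genes the departure was larger where the tissue with the high level was scarce. Aldoc departed by 0.75 with 5% brain (70/5/25), where 9.12 ± 0.05 (log2, SD, n = 3) was observed beside a sum of 8.38, and by 0.07 with 70% brain (25/70/5). Eno2 departed by 1.06 and 0.19 in these mixtures, and Ldhb by 0.56 and 0.07. For Pklr, a liver gene, the brighter probe set departed by -0.46 in 70/5/25 and by -1.15 in 25/70/5, where liver is 25%. In 5/25/70, where liver is 5%, it was observed at 4.57 ± 0.04, against 5.72 by the sum and 4.23 in pure brain. Aldoc, Eno2 and Ldhb thus lay farthest above the sum where brain was scarcest, and the brighter Pklr probe set lay farthest below it in the mixtures with 5% and 25% liver. The dimmer Pklr probe set did not follow that order, at -0.96 in both 5/25/70 (5% liver) and 60/35/5 (60% liver), between -1.18 in 25/70/5 and -0.81 in 70/5/25. Aldoa departed most in 70/25/5 (0.35) and by 0.28 at 5% brain, and Eno3 lay nearest the sum in 70/5/25 (-0.23), with 25% lung.

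**Figure D4:**
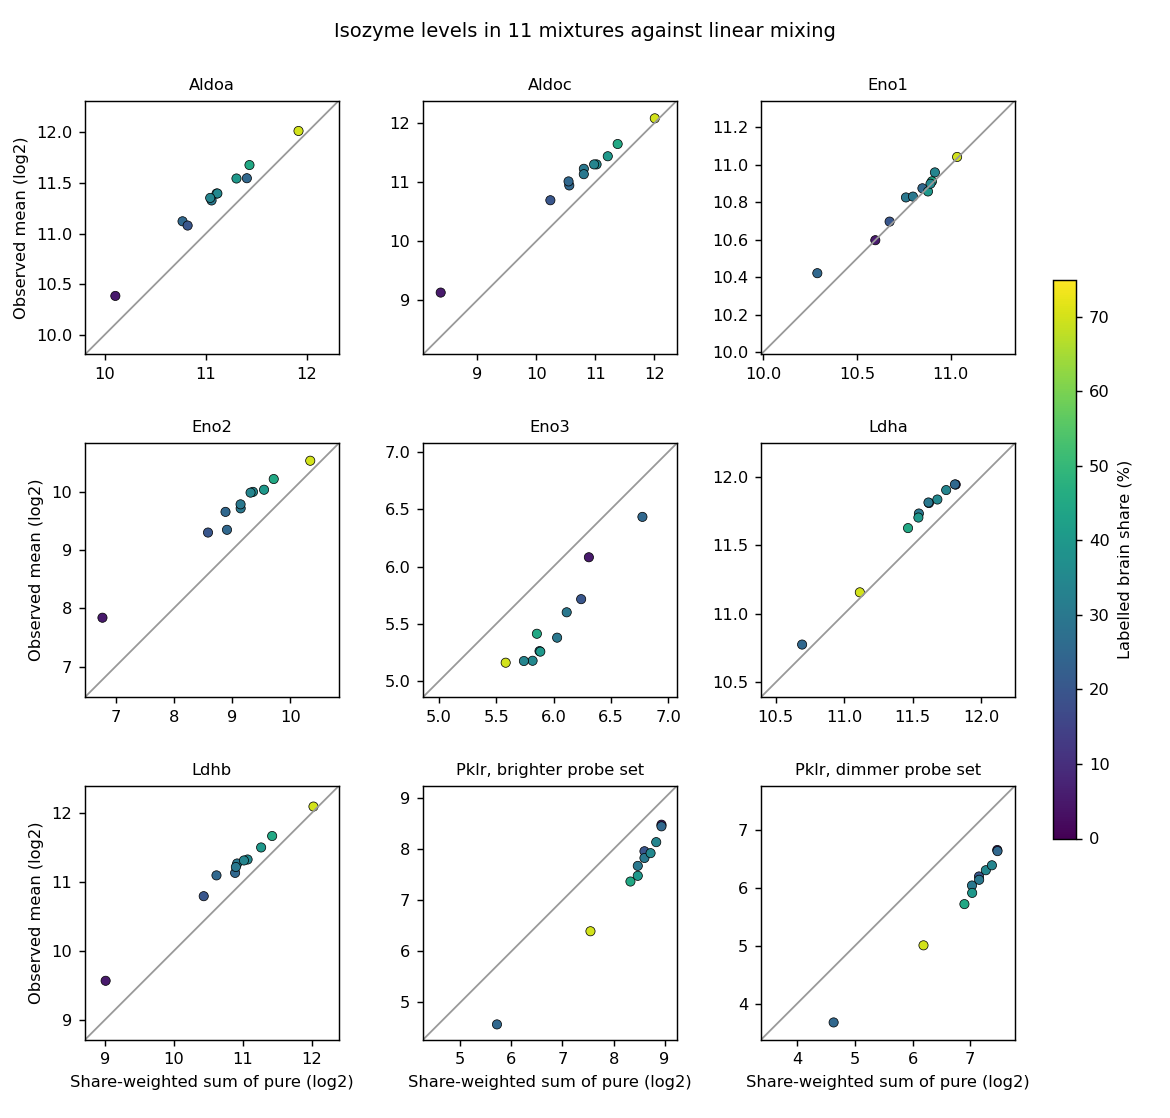
Observed log2 mean (vertical axis) against the log2 of the share-weighted sum of pure tissue levels (horizontal axis) for the 11 mixtures, 1 panel per probe set, coloured by the labelled percentage of brain; the grey line is equality. Eno2, Aldoc and Ldhb lie above the line most at 5% brain, both Pklr probe sets and Eno3 lie below it in all 11 mixtures, and Eno1 lies close to it.

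Mixtures that trade 1 tissue for another at a constant share of the other show the switches without a pure array; all 3 such pairs share the 70/25/5 arrays. Trading liver for brain at 5% lung (25/70/5 against 70/25/5) gave 5 probe sets higher and 3 lower, where 30.9% and 22.1% of all probe sets were called at adjusted p of 0.05 with no fold limit. Aldoc was at 12.06, 12.09 and 12.08 in 25/70/5 and at 11.01, 11.02 and 10.999 in 70/25/5, higher by 1.07 ± 0.05 (log2, SE; adjusted p = 4.30e-18). Ldhb was higher by 1.00, Aldoa by 0.89, Eno2 by 0.88 and Eno1 by 0.17. Ldha was lower (-0.79), as was Pklr by both probe sets (-2.05 and -1.63). No gene called in this pair ran against its difference of pure brain and liver. The mixtures pool the same RNA as the pure arrays, so shared directions check the mixing and are no further support for tissue differences. Eno3 differed by -0.10 (adjusted p = 0.432).

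Trading liver for lung at 25% brain (5/25/70 against 70/25/5) gave 2 higher and 5 lower, against 30.6% and 30.7% of all. Eno3 was at 6.63, 6.17 and 6.50 in 5/25/70 and at 5.21, 5.23 and 5.35 in 70/25/5, higher by 1.17 ± 0.10 (log2, SE; adjusted p = 3.90e-12). The replicates did not overlap, though the 5/25/70 arrays were spread by 0.24 (SD). Aldoa was higher by 0.43. Pklr was lower by both probe sets (-3.88 and -2.97), as were Ldha (-1.17) and Eno1 (-0.45). Eno2 was lower too (-0.31 ± 0.09, adjusted p = 0.00403), although pure lung stood above pure liver for it and the sums of pure levels gave 0.03. That difference was 0.02 after the line through the hybridisation controls and missed the threshold at -0.31 with the 5th percentile subtracted. Aldoc (-0.07) and Ldhb (0.04) were not called (adjusted p = 0.279 and 0.494), though Aldoc was after median centring (-0.16) and Ldhb after quantile normalization (0.15).

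Trading brain for lung at 70% liver (70/5/25 against 70/25/5) gave 1 higher and 5 lower, against 25.4% and 21.4% of all. The 1 was Eno3, higher by 0.82 ± 0.10 (log2, SE; adjusted p = 2.15e-08). Aldoc was at 9.15, 9.15 and 9.07 in 70/5/25, against 11.01, 11.02 and 10.999 in 70/25/5, a difference of -1.88 ± 0.05 (log2, SE; adjusted p = 3.38e-24), and Eno2 (-1.82), Ldhb (-1.53), Aldoa (-0.74) and Eno1 (-0.28) were lower as well. The liver-high genes were not called here: Ldha differed by -0.00132 and Pklr by 0.03 and 0.02 (adjusted p of 0.769 to 0.984). After the line through the hybridisation controls Eno1 lost its call in each of the 3 pairs (0.24, -0.34 and -0.27), and Aldoa lost it in 5/25/70 (0.43).

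Finally, tissue levels were estimated from the 33 mixture arrays alone, by regression of linear values on the labelled shares. The residual here holds misfit of the 11 mixtures to the shares as well as array-to-array spread. Each mixture's 3 technical replicates counted as separate arrays, so SE and p-values may be too small. In brain against liver 5 probe sets were higher (Aldoa, Aldoc, Eno1, Eno2 and Ldhb) and 4 lower (Eno3, Ldha and both of Pklr), where 34.4% and 34.8% of all were. The Eno3 call (-19.5 ± 7.30, linear, SE; adjusted p = 0.0182) ended without any 1 of the 70/5/25 arrays (-16.1 to -15.4, adjusted p of 0.0593 to 0.0678). In brain against lung 5 were higher, the same as against liver, and 3 lower (Eno3 and both of Pklr), against 31.7% and 35.0%, and Ldha was not called (adjusted p = 0.236). The Pklr calls (-121 ± 26.2 and -22.2 ± 7.28, linear, SE) came with brain estimates below 0 (-93.8 and -11.2). They ended after the line through the hybridisation controls (-67.0 and -5.46). On the pure arrays Pklr was not called between brain and lung. It differed there by -0.03 (log2) with the brighter probe set and by 0.27, of opposite sign, with the dimmer. Each gene called between pure brain and another tissue kept its direction here, which, with the same RNA in both, checks the mixing only.

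In lung against liver 2 were higher (Aldoa and Eno3) and 5 lower (Eno1, Eno2, Ldha and both of Pklr), against 33.4% and 36.5% of all. Ldhb, which was 5.96-fold higher in pure lung than in pure liver, was not called from the mixtures (248 ± 130, linear, SE; adjusted p = 0.0873). Aldoc was not called either (-41.5 ± 129, adjusted p = 0.783). Eno2 was called lower in lung (-268 ± 82.4, adjusted p = 0.00451), against a higher level in pure lung than in pure liver; after the line through the hybridisation controls it was at 15.6 and not called.

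The estimated levels show where these differences lie. For liver the mixtures gave Aldoc a level of 538 ± 66.3 (linear, SE), against 36.1 on the pure liver arrays, Eno2 347 ± 42.2 against 14.5, and Ldhb 642 ± 66.5 against 101. Those are 14.9, 23.9 and 6.39 times the pure level, and Aldoa, at 980 ± 59.7 against 494, was at 1.98 times. For genes bright in liver the estimates lay nearer: Ldha had 5104 ± 60.8 against 4491, and Eno1 had 1.00 times its pure level. Pklr was estimated below its pure liver level, at 481 ± 11.2 against 692 and at 137 ± 3.10 against 247, and in brain at -93.8 ± 16.7 and -11.2 ± 4.62, values below 0. For brain, Aldoc had 6213 ± 98.8 against 5859 and Ldhb 6194 ± 99.2 against 5886. For lung, Aldoc had 496 ± 100.5 against 56.3 (8.82 times), Eno2 78.4 ± 63.9 against 27.4 (2.86 times, within 1 SE of its pure level) and Ldhb 890.2 ± 100.9 against 600 (1.48 times).

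**Figure D5:**
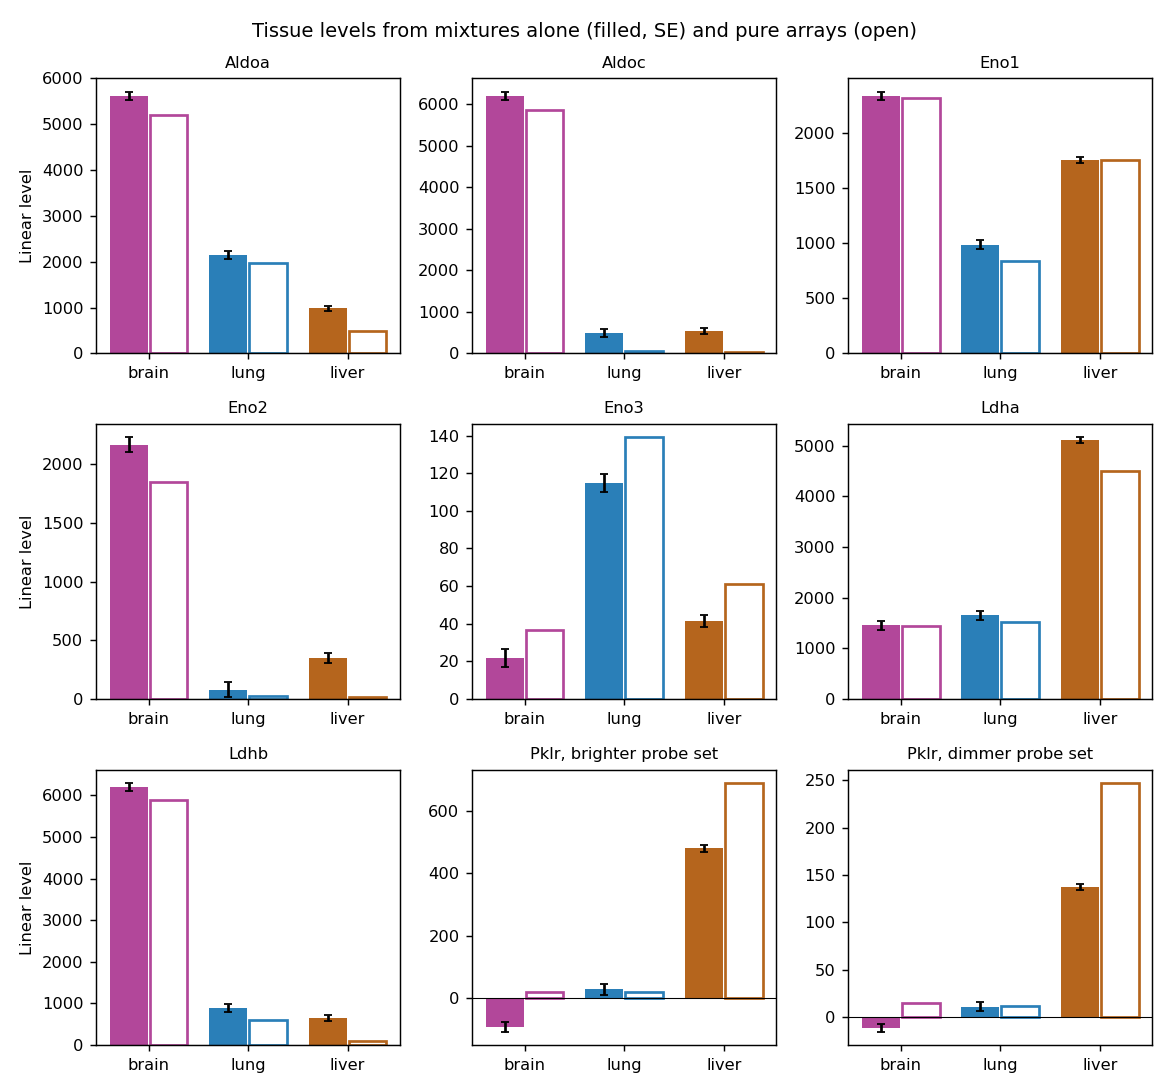
Linear level of each isozyme probe set in brain, lung and liver as estimated from the 33 mixture arrays alone (filled bars, with standard errors) and as measured on pure arrays (open bars). Estimates for liver are 1.98 times the pure level for Aldoa and further above it for Aldoc, Eno2 and Ldhb, fall short of it for Pklr, and Pklr takes values below 0 in brain.

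Across the 14 group means, the genes whose log2 level ran most like each isozyme gene were picked by Pearson's r among 8483 genes with a span of at least 1. These values describe groups that share the same 3 RNAs, so high r is common and carries no test. Closest to Aldoa were Syne1, Ndrg1 and Itm2c (r = 0.999, 0.999 and 0.998). Closest to Aldoc were Slc24a2, Cplx1 and Serpini1 (0.999 each), and to Eno2 Stmn2, Fgf13 and Adam22 (1.000, 1.000 and 0.999). Stmn2 also stood in the neuronal marker list, and these 6 genes had levels of 10.46 to 12.03 in brain, 3.84 to 5.40 in lung and 3.10 to 4.70 in liver. Eno1 ran with Bnip3, Mif and Atp5f1a (0.998, 0.996 and 0.995), and Eno3 with Spdef, Cdca7 and Magoh (0.993 each). Ldha ran with Ddt, Fdps and Aldh6a1 (0.999, 0.998 and 0.998). Ldhb ran with Mef2c, Mal and Pfkp (0.998 each), the last being the phosphofructokinase gene described above. The brighter Pklr probe set ran with Slc17a4, Pdzk1 and Hacl1 (1.000, 0.999 and 0.999), and the dimmer one with Fabp12, Adh4 and Adra1b (0.999, 0.998 and 0.998).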

How the data were processed

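Gene expression was measured on Affymetrix arrays, and the values analysed are the log2 levels per probe set that the authors deposited after RMA normalization, per the submitters' processing notes; no RMA version is given there. RMA makes the distributions of arrays alike, so tissues whose RNA is spread differently over genes may be scaled unevenly. No replicate pair of arrays shared more than 28 equal values, so each array counted as 1 replicate. The number of arrays limits the precision. Genes were named from the platform annotation, in which 20826 probe sets had 1 gene, 436 several and 9780 none listed. The tests omitted the table's 57 control probe sets.

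Group means of all 42 arrays were fitted together in limma 3.58.1 under R 4.3.3 (28 residual degrees of freedom, 4.56 from the prior), with Benjamini-Hochberg adjustment over 31042 probe sets. Pure tissues were called at adjusted p of 0.05 and 2-fold, departures at 1.5-fold with errors by the delta method, pairs and mixture regression (limma with a variance trend) with no fold limit. The steps were tested on simulated data. The isozyme genes and gene lists were chosen with earlier results of these data known. The named genes are all isozyme genes, the 2 largest calls each way per contrast of each pathway list, and the 3 genes most like each isozyme probe set. For gene lists, each gene was represented by its probe set of highest mean level. Alternatives tried were pure arrays alone, another variance model, other scalings, a filter on dim probe sets, background subtraction, the scale of mixing and leaving out each array. Plots were made in matplotlib 3.10.9 (Python 3.11.15).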

Additional observations from a re-analysis of the deposited data

How the results depend on the processing

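No paired analysis was possible because the labels give the arrays no replicate numbers. Of 561 tested values under the alternatives that keep all replicates, 510 kept direction and side of the threshold, 17 lost their call, 12 gained one and 22 changed sign, 7 of these with a call as deposited. Of 1971 leaving out 1 array, 1960 kept both. After median centring the departures of Eno1 and Ldha were -0.12 and -0.0571 with 0 called higher, 5/25/70 minus 70/25/5 was -0.0509 for Ldhb, 70/5/25 minus 70/25/5 was 0.0583 for Ldha, and mixtures alone gave -11.5 for Ldhb in lung minus liver. Quantile normalization gave -0.35 for Eno3 to Eno2 in lung, 0 departures called higher, 0.0736 for Aldoc in 5/25/70, 0.000116 for Ldha in 70/5/25, and 229 for Aldoc in lung minus liver from mixtures alone. The line through the hybridisation controls gave 0.14 for Eno3 in brain minus liver, 5 calls higher in lung than in liver, departures of -0.00661 for Eno1 and -0.00570 for Ldha with 0 called in either direction, 0.35 for Eno3 in 25/70/5, and in 5/25/70 0.0249 for Eno2 with 1 call higher and 3 lower. In 70/5/25 it gave 0.0472 for Ldha and -0.00565 for the dimmer Pklr probe set, and from mixtures alone 14.7 for Eno3 in brain minus liver, 203 for Aldoc and 15.6 for Eno2 in lung minus liver, with 3 calls lower there and 1 lower in brain minus lung. With the 5th percentile subtracted Eno3 to Eno2 in lung was -0.65. Against a share-weighted mean of log2 levels, which can only lie lower than the linear sum, Pklr departed by 0.64 and 0.00411, with 5 called higher and 0 lower. Leaving out 1 array, departures called higher were 0 to 1, with 0 without brain replicate 2. Over the same runs Pklr (brighter) in brain minus lung was -0.11 to 0.10, and in 70/5/25 minus 70/25/5 Ldha was -0.0142 to 0.0167, Pklr (brighter) -0.0248 to 0.0849 and Pklr (dimmer) -0.000610 to 0.0521. Apart from the log2 mean, the cause of these changes was not tested. The ratio of Pklr to Pkm, and ratios by a second probe set, were not run. Levels near the bacterial controls limit the folds of Eno2 in liver and of Pklr in brain and lung.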
